A study of Mus musculus with 4 samples.

Results

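Glycolysis and hypoxia response genes are 38 of the 22574 genes in the deposited matrix, chosen by name from 2 groups. The first group held 17 glycolytic enzymes, from hexokinase to lactate dehydrogenase. The second held 21 other genes, namely 2 glucose carriers, 2 lactate carriers, 4 regulators of glucose use, 4 genes of oxygen sensing and 9 targets of the hypoxia response. All 38 were found in the matrix and had UMIs (unique molecular identifiers, 1 per captured RNA molecule) in each of the 4 libraries.

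The libraries were made by single-nucleus RNA sequencing of all cardiac nuclei from neonatal mouse hearts, 1 library for each pairing of genotype and surgery, and the authors deposited the nuclei of the cardiomyocyte clusters. Every mouse, controls included, had both alleles of Nrf1 flanked by loxP sites, and the gene is Nfe2l1 in the matrix. In the KO libraries the mice also carried Cre under the αMHC promoter, which is active in cardiomyocytes, and the WT libraries came from mice with no Cre. Surgery on postnatal day 3 was either MI, a ligation of the left anterior descending artery, or Sham, and hearts were taken 1 day later. Each library pooled 4 to 6 hearts, from the tissue below the ligation plane. The labels' protocol gives the C57BL/6 background, although the strain field differs in its number from library to library. Libraries are called by their labels, WT-Sham, WT-MI, KO-Sham and KO-MI, and the WT arm is WT-MI over WT-Sham while the KO arm is KO-MI over KO-Sham. With 1 library per label there was no replicate, so no difference was tested. Levels are CPM, counts per 1000000 UMIs of a sum of nuclei, and brackets of the form (a to b) hold exact 95% intervals that cover counting error only.

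Glycolysis splits glucose into pyruvate in the cytosol and yields ATP without oxygen, and lactate dehydrogenase and the lactate carriers then clear its product. The neonatal heart relies on glycolysis more than the adult heart does, and it shifts to fatty acid oxidation in the weeks after birth. When oxygen is scarce, the prolyl hydroxylases that mark hypoxia-inducible factor (HIF) for destruction slow down, and HIF binds a short core sequence near genes of glucose uptake, glycolysis, vessel growth and mitophagy. Several steps of glycolysis are served by a pair of genes, of which 1 is typical of adult muscle and the other of growing or hypoxic tissue.

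The HIF core was searched in the promoters as ACGTG and GCGTG, on both strands, with overlapping matches counted as 1 site. RefSeq promoters of build GRCm38.p6, from 250 bases before to 50 bases after the start of a gene, matched 34 of the 38 genes, Ero1l under the symbol Ero1a. Slc2a4, Epas1, Bnip3l and Ndrg1 had no entry. Some genes have several promoters in the table. A promoter with either core was found for 14 of 17 glycolytic enzymes (82.4%) and for 17 of 17 of the other genes (100%), against 12628 of all 27025 genes with a promoter (46.7%). Counted by promoter, the shares were 20 of 27 (74.1%), 20 of 25 (80.0%) and 43.8%. By gene, ACGTG was present in 9 of 17 (52.9%), 14 of 17 (82.4%) and 21.8% of all genes. A match is a string of letters and not a binding site. The other genes were listed in part as targets of the hypoxia response, so their larger share of cores is not an independent finding. These 4 promoters are shown because their genes stood far apart in the libraries labelled MI. Slc2a1 and Egln3 were among the genes with the highest ratios over Sham, and Pgam1 and Pgam2 are partners that went opposite ways. Capitals mark the cores.
Slc2a1, chr4:119108495-119108794, plus strand: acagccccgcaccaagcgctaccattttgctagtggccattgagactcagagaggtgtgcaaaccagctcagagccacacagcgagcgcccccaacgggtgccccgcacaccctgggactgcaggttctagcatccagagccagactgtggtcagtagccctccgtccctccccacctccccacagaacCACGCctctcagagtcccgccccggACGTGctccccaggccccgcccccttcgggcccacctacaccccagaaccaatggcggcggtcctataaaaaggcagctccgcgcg
Egln3, chr12:54203825-54204124, minus strand: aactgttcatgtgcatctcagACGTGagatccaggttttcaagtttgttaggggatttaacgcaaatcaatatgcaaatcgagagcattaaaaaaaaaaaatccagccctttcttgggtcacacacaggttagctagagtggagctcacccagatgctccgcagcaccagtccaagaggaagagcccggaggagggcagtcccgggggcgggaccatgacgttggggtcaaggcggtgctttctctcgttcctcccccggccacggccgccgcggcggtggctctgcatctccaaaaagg
Pgam1, chr19:41911621-41911920, plus strand: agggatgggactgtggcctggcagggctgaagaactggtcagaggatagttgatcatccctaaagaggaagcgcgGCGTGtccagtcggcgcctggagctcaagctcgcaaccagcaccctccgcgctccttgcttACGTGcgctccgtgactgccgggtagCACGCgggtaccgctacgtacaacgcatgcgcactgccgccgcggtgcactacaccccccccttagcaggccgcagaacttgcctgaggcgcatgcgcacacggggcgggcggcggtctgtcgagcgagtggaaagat
Pgam2, chr11:5803747-5804046, minus strand: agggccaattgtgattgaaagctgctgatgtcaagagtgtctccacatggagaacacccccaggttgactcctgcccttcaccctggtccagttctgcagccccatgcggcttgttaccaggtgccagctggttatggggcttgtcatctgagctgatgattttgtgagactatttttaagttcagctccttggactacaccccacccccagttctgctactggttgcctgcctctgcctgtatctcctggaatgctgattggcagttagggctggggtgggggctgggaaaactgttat
The Slc2a1 window held 2 cores, the Egln3 window 1, the Pgam1 window 3 and the Pgam2 window 0. Among windows not shown, those of Eno3 and Ldhb, which were lower in the libraries labelled MI, held 1 core each. The Gapdh window held 3. The windows of Tpi1 and Gpi1, within 1.5-fold in both arms, held 0. A tie between cores and the direction of a ratio was not tested.

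The 4 libraries held 1406 to 3328 nuclei and 4984625 to 9106522 UMIs, with a median of 2572 to 3959 UMIs per nucleus. Nfe2l1, the targeted gene, stood at 62.2 CPM in WT-Sham, 47.4 in WT-MI, 50.5 in KO-Sham and 55.3 in KO-MI. KO lay below WT under the Sham labels (log2 ratio -0.30, -0.51 to -0.09) and above WT under the MI labels (0.22, 0.02 to 0.43), against the label, although counts of a 3′ kit need not lie in the deleted part. Of 8576 distinct barcodes, 9 occurred in 2 or more libraries. The 10 ventricular cardiomyocyte markers were detected in every library and summed to 36953 to 45921 CPM. The 11 myeloid markers moved with the MI label, at 147 CPM in WT-Sham, 601 in WT-MI, 108 in KO-Sham and 316 in KO-MI. So did the 4 atrial markers, Myl7, Myl4, Sln and Nppa, at 204, 2439, 333 and 3343 CPM in the same order. The paper names Nppa as a marker of cardiac stress, so this sum alone does not mark atrial cells. Red blood cell markers summed to 2123 to 4519 CPM, fibroblast markers to 973 to 1162, endothelial markers to 517 to 871 and smooth muscle and pericyte markers to 35.1 to 43.7, with no listed marker at 0 in any library. The part of these cells in the results below was not tested, apart from the values in nuclei with no myeloid UMI that are given.

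Of the 2 glucose carriers, the basal carrier was several times higher in the libraries labelled MI and the insulin-regulated carrier was not. Slc2a1 (chromosome 4, 119108711 to 119137983), which encodes the GLUT1 carrier and whose promoter is shown above, stood at 11.03 CPM in WT-Sham, 38.6 in WT-MI, 10.4 in KO-Sham and 46.6 in KO-MI. These are sums of 55, 307, 95 and 343 UMIs, and both MI levels lay above both Sham levels with no overlap of intervals. The log2 ratio of MI over Sham was 1.81 (1.39 to 2.25) in the WT arm and 2.16 (1.83 to 2.50) in the KO arm. Slc2a4, which encodes the insulin-responsive GLUT4 carrier, stood at 32.5, 19.0, 21.7 and 20.9 CPM in the same order. Only WT-Sham stood apart, so that the ratio was -0.78 (-1.11 to -0.45) in the WT arm and -0.06 (-0.37 to 0.26) in the KO arm. With every nucleus thinned to 1000 UMIs the WT ratio of Slc2a4 was -0.34 and no longer past 1.5-fold, the size of change that is called here.

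In upper glycolysis, 2 of the 8 enzymes were past 1.5-fold higher in both arms, as were 7.29% of all genes with 50 or more UMIs. None was past 1.5-fold lower in either arm, where 13.7% of all genes were in the WT arm and 10.8% in the KO arm. Hk2, the inducible hexokinase that traps glucose in the cell, stood at 59.8 CPM in WT-Sham, 123 in WT-MI, 45.2 in KO-Sham and 117 in KO-MI. Its log2 ratio of MI over Sham was 1.04 (0.85 to 1.23) in the WT arm and 1.37 (1.20 to 1.54) in the KO arm. Pfkp, the platelet form of phosphofructokinase, stood at 71.8, 188, 73.5 and 181 CPM, with ratios of 1.39 (1.22 to 1.56) and 1.30 (1.17 to 1.44). For both genes the libraries labelled MI were close to each other and well above the Sham libraries. The WT ratio of Hk2, however, was 0.56 in nuclei whose final and transferred population labels agree. Such nuclei include none of CM2 or CM5, deposited populations that are described below. Aldoa, the muscle aldolase and 1 of the 5 genes with the most UMIs, stood at 292, 304, 410.0 and 353 CPM, and its ratios of 0.06 (-0.04 to 0.15) and -0.22 (-0.29 to -0.15) were small in both arms. The other 5 enzymes of this stretch, Hk1, Gpi1, Pfkm, Pfkl and Tpi1, had ratios between -0.35 and 0.58, and both of these ends were within 1.5-fold.

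In lower glycolysis the enzymes split, with Pgam1 and Eno1 higher and Pgam2 and Eno3 lower in the libraries labelled MI in both arms. Pgam1, the phosphoglycerate mutase of most tissues, stood at 44.1 CPM in WT-Sham, 83.2 in WT-MI, 56.0 in KO-Sham and 84.5 in KO-MI, with log2 ratios of MI over Sham of 0.91 (0.69 to 1.14) and 0.59 (0.42 to 0.77). The KO ratio of Pgam1 stayed past 1.5-fold in 2 of 7 alternatives and was 0.40 in nuclei with no myeloid UMI. Pgam2, the muscle form, stood at 176, 118, 299.6 and 151 CPM, so that the highest level was in KO-Sham and the lowest in WT-MI. Its ratio was -0.99 (-1.09 to -0.89) in the KO arm and -0.58 (-0.71 to -0.44) in the WT arm, just within 1.5-fold. Its promoter window was the 1 of those shown with no core, while that of Eno3, also lower, held 1. Eno1, the enolase of most tissues, stood at 94.3, 132, 83.5 and 133 CPM, with ratios of 0.48 (0.32 to 0.64) and 0.67 (0.53 to 0.81). Only the KO ratio of Eno1 was past 1.5-fold, and it was 0.47 in nuclei under 5% mitochondrial UMIs. Eno3, the enolase of muscle, stood at 317, 165, 453 and 219 CPM, with ratios of -0.94 (-1.05 to -0.84) and -1.05 (-1.13 to -0.96). Eno3 was thus lower in the libraries labelled MI by close to 2-fold in both arms. Gapdh, which oxidises glyceraldehyde phosphate, stood at 225, 199, 325 and 196 CPM. The KO-Sham library was the high one, and the ratio was -0.73 (-0.82 to -0.64) in the KO arm and -0.18 (-0.29 to -0.07) in the WT arm. Pkm, which makes pyruvate, stood at 221, 287, 263 and 297 CPM and stayed within 1.5-fold (0.38 and 0.18). Pgk1, which makes ATP, did so too (0.52 and 0.28).

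The enzymes past 1.5-fold lower in 1 or both arms, namely Eno3, Pgam2, Gapdh and the lactate dehydrogenase gene Ldhb described next, each span under 20 kb in the GENCODE annotation. Genes of that length were past 1.5-fold lower in 16.0% of cases in the WT arm and 15.9% in the KO arm, against 12.2% and 6.48% of genes over 60 kb. Pgam1 and Eno1, which were higher, also span under 20 kb. The median share of mitochondrial UMIs moved with the MI label too, from 6.58% in WT-Sham to 5.37% in WT-MI and from 8.98% in KO-Sham to 5.29% in KO-MI. In nuclei under 5% mitochondrial UMIs the ratios of Eno3 were -0.71 and -0.90, and those of Gapdh were 0.05 and -0.66, so that Gapdh was not lower in the WT arm there. The part of gene length in these ratios was not tested.

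At the lactate step, the lactate exporter was higher and the heart type of lactate dehydrogenase lower in both arms. Slc16a3, which encodes the MCT4 carrier that lets lactate out of glycolytic cells, stood at 3.21 CPM in WT-Sham, 18.5 in WT-MI, 2.96 in KO-Sham and 16.6 in KO-MI. These rest on 16, 147, 27 and 122 UMIs. Its log2 ratios of MI over Sham were 2.53 (1.78 to 3.37) and 2.48 (1.87 to 3.14), the highest of the 37 genes with enough UMIs in both arms. Slc16a1, which encodes the more widely used MCT1 carrier, had ratios of 0.22 and 0.52. Ldhb, the heart subunit, stood at 458, 270, 625 and 334 CPM, with ratios of -0.76 (-0.85 to -0.68) and -0.90 (-0.97 to -0.84). With nuclei under 5% mitochondrial UMIs the WT ratio of Ldhb was -0.54, inside 1.5-fold. Ldha, the muscle subunit, stood at 192, 243, 259 and 304 CPM and was within 1.5-fold in both arms (0.34 and 0.24).

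**Figure D1:**
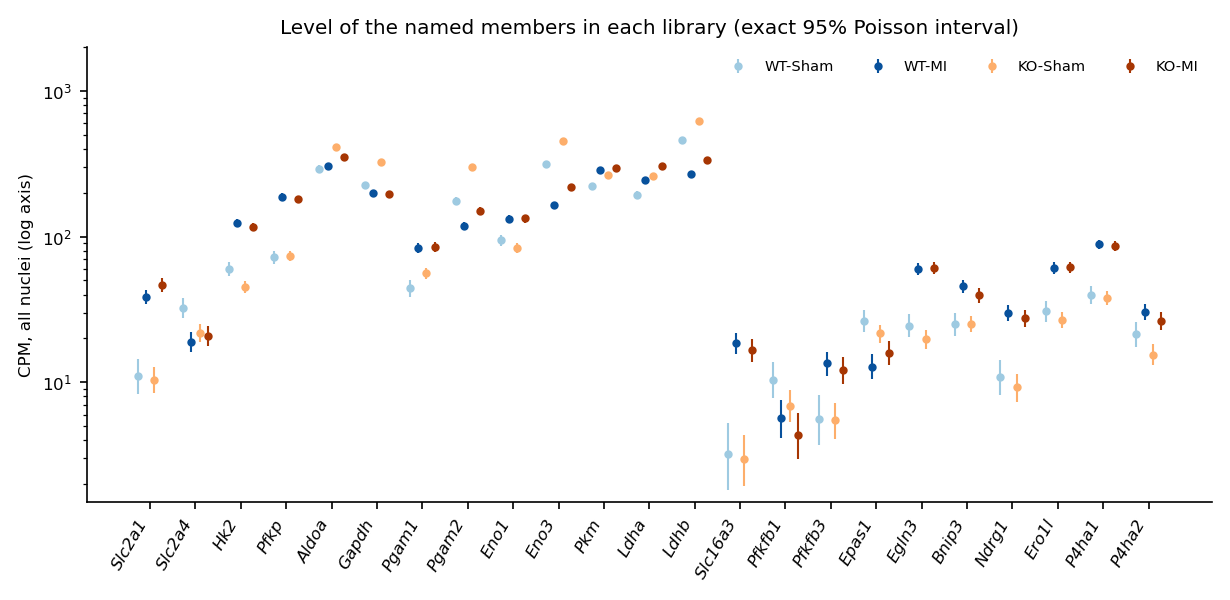
Level of 23 named genes in each of the 4 libraries, in CPM over all nuclei on a log axis; points are single libraries and bars exact 95% Poisson intervals. Slc2a1, Slc16a3, Hk2, Pfkp, Egln3 and Ndrg1 were high in both MI libraries, Eno3 and Ldhb were low in both, and Pgam2 was highest in KO-Sham at 299.6 CPM.

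The partner genes of 6 steps were compared within each library, as UMIs of 1 gene per UMI of the other, which does not depend on the depth or the total used. The pairs were chosen after the values above were seen. In all 6 pairs the gene listed first took a larger part in both libraries labelled MI than in either library labelled Sham. Slc2a1 per Slc2a4 went from 0.340 in WT-Sham to 2.03 in WT-MI and from 0.480 in KO-Sham to 2.23 in KO-MI, changes of 5.99-fold and 4.64-fold. Pfkp per Pfkm went from 0.622 to 2.07 and from 0.753 to 2.25, or 3.34-fold and 2.99-fold. Both MI libraries were close to each other at these steps. Eno1 per Eno3 went from 0.298 to 0.799 and from 0.184 to 0.607, or 2.68-fold and 3.30-fold. Pgam1 per Pgam2 went from 0.251 to 0.707 and from 0.187 to 0.560, or 2.82-fold and 2.997-fold. KO-Sham held the lowest ratio of each of these pairs. Ldha per Ldhb went from 0.419 to 0.899 and from 0.414 to 0.913, or 2.15-fold and 2.20-fold. Hk2 per Hk1 went from 0.471 to 0.714 and from 0.388 to 0.669, or 1.52-fold and 1.72-fold. Within CM1, the largest of the deposited nuclear populations, the changes of all 6 pairs were smaller. They were 2.45-fold and 2.06-fold for Slc2a1 per Slc2a4, 2.19-fold and 2.03-fold for Pfkp per Pfkm and 1.04-fold and 1.32-fold for Hk2 per Hk1. For Eno1 per Eno3 they were 2.18-fold and 3.14-fold, for Pgam1 per Pgam2 2.35-fold and 2.87-fold, and for Ldha per Ldhb 1.93-fold and 1.96-fold.

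**Figure D2:**
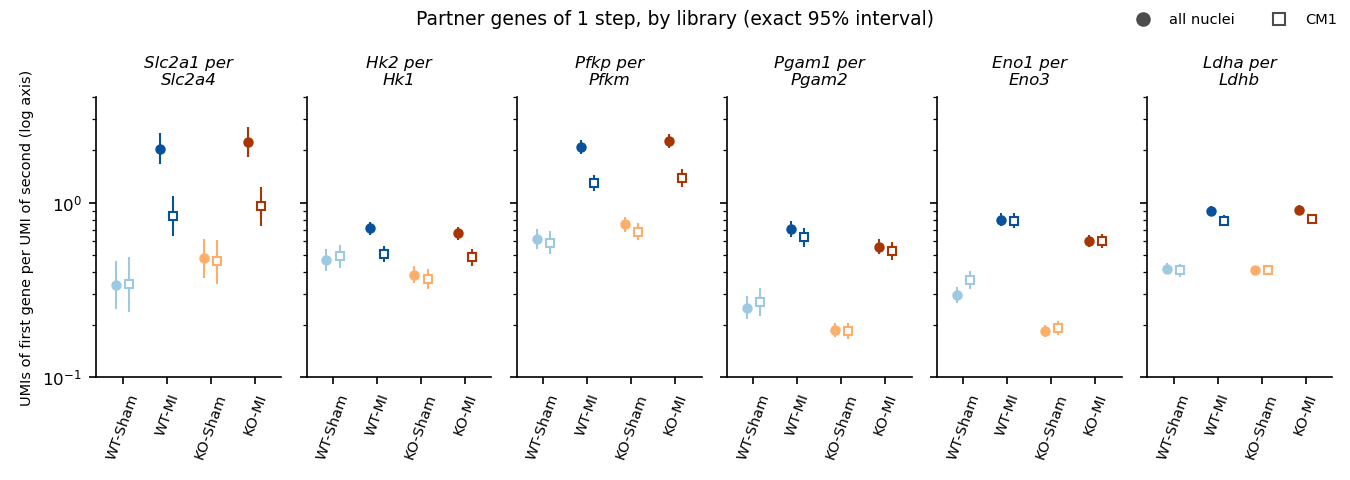
UMIs of the first gene per UMI of its partner in each library, on a log axis, for all nuclei (filled circles) and CM1 (open squares), with exact 95% intervals. In all nuclei both MI libraries lay above both Sham libraries in each of the 6 panels.

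Among the regulators, Pfkfb3 was higher and Pfkfb1 lower in both arms. These genes encode forms of the bifunctional enzyme that makes and removes an allosteric activator of phosphofructokinase. Pfkfb3, the inducible form, stood at 5.62 CPM in WT-Sham, 13.4 in WT-MI, 5.49 in KO-Sham and 12.1 in KO-MI, with log2 ratios of MI over Sham of 1.26 (0.65 to 1.92) and 1.14 (0.62 to 1.67). Pfkfb1, first known from liver and muscle, stood at 10.4, 5.66, 6.92 and 4.35 CPM, with ratios of -0.88 (-1.49 to -0.28) and -0.67 (-1.33 to -0.03). Its levels rest on 32 to 63 UMIs a library, and its intervals are wide. The KO ratio of Pfkfb3 was 0.51 in nuclei whose labels agree, which include none of CM5. Pfkfb2, the heart form, had ratios of -0.35 and -0.43, and Pdk1, a kinase that blocks pyruvate oxidation, of -0.24 and -0.11, all within 1.5-fold.

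In oxygen sensing, Egln3 was higher in the libraries labelled MI in both arms, and Epas1 was past 1.5-fold lower in the WT arm alone. Egln3 (chromosome 12, 54178981 to 54203860), which encodes a prolyl hydroxylase of HIF and is itself a target of HIF, stood at 24.5 CPM in WT-Sham, 59.8 in WT-MI, 19.8 in KO-Sham and 60.9 in KO-MI, from 122, 476, 180 and 448 UMIs. Its log2 ratios of MI over Sham were 1.29 (0.9997 to 1.59) and 1.62 (1.37 to 1.88), and its promoter is shown above. Egln1, the hydroxylase most used at normal oxygen, had ratios of 0.09 and 0.26. Hif1a, the oxygen-regulated subunit of HIF, stood at 200.4 to 251 CPM with ratios of 0.27 and 0.33, within 1.5-fold. Epas1, which encodes the related subunit HIF2α and is high in endothelium, stood at 26.5, 12.8, 21.6 and 15.9 CPM. Its ratio was -1.05 (-1.43 to -0.66) in the WT arm and -0.44 (-0.79 to -0.11) in the KO arm. In nuclei with no myeloid UMI, of which WT-MI held 251, the WT ratio of Epas1 was 0.01, so its direction did not hold there.

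Of the 9 hypoxia targets, 4 were past 1.5-fold higher in both arms, where 7.29% of all genes were, 1 was in the KO arm alone and none was lower. Singly, 10.2% of all genes were higher in the WT arm and 11.7% in the KO arm. Ndrg1, a stress-induced gene of the N-myc regulated family, stood at 10.8 CPM in WT-Sham, 29.8 in WT-MI, 9.22 in KO-Sham and 27.4 in KO-MI, with log2 ratios of MI over Sham of 1.46 (1.03 to 1.91) and 1.57 (1.20 to 1.96). In WT-MI its 237 UMIs came from 138 nuclei, with 21 in 1 nucleus. P4ha1, a catalytic subunit of collagen prolyl hydroxylase, stood at 39.5, 88.6, 37.8 and 85.9 CPM, with ratios of 1.16 (0.93 to 1.40) and 1.18 (0.99 to 1.38). Ero1l, an oxidase of protein folding in the endoplasmic reticulum, stood at 30.7, 60.8, 26.9 and 61.4 CPM, with ratios of 0.99 (0.72 to 1.26) and 1.19 (0.96 to 1.42). The MI libraries of these 3 genes lay within 3 CPM of each other in each case. Without nuclei that held a myeloid UMI the WT ratio of Ero1l was 0.41. Bnip3, a receptor for mitophagy, stood at 25.1, 45.6, 25.1 and 39.4 CPM, with ratios of 0.86 (0.57 to 1.17) and 0.65 (0.39 to 0.90). Both ratios of Bnip3 were inside 1.5-fold in nuclei whose labels agree, which include none of CM5, at 0.38 and 0.25. The KO ratio of Bnip3 was also inside it in nuclei under 5% mitochondrial UMIs, at 0.34. P4ha2, the second collagen prolyl hydroxylase subunit of the list, stood at 21.3, 30.4, 15.5 and 26.5 CPM, with ratios of 0.52 (0.18 to 0.86) and 0.77 (0.46 to 1.10). Only its KO ratio was past 1.5-fold, and it was 0.41 in nuclei with no myeloid UMI. Vegfa, the vascular growth factor, stood at 219.9, 307, 194 and 289.5 CPM, and its ratios of 0.48 (0.38 to 0.59) and 0.57 (0.48 to 0.67) were within 1.5-fold. Bnip3l and Ankrd37 had ratios between -0.32 and -0.12. Adm, which encodes the vasodilator adrenomedullin, had 6, 33, 19 and 29 UMIs, too few over both sums of an arm for a call.

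**Figure D3:**
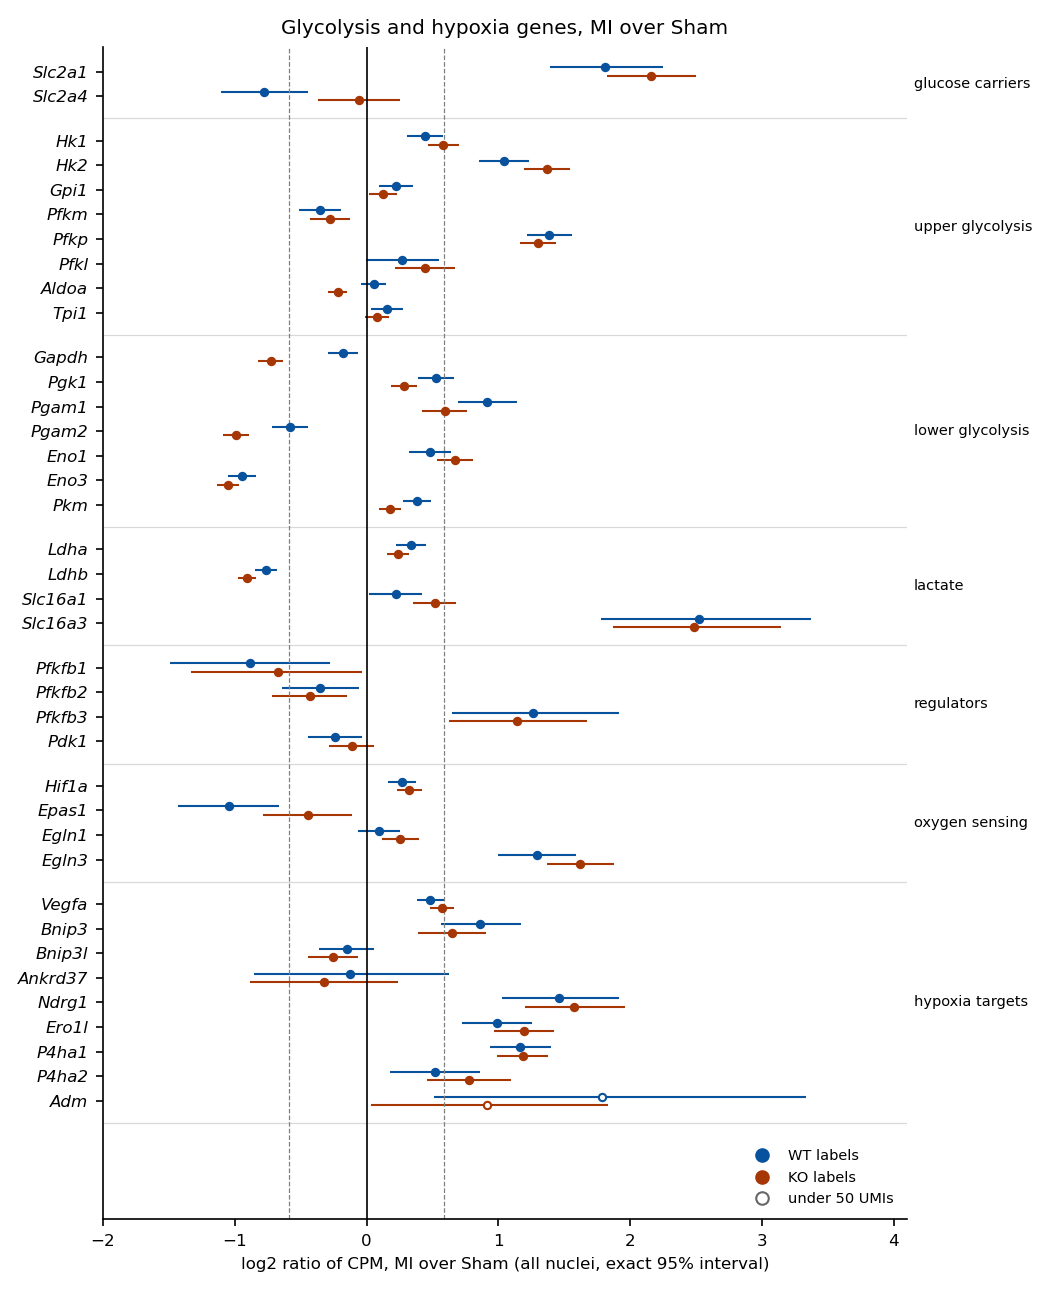
Log2 ratio of CPM, MI over Sham, for each of the 38 genes by role, in the WT arm (blue) and the KO arm (red), over all nuclei with exact 95% intervals; dashed lines mark 1.5-fold and open points genes with under 50 UMIs. Slc16a3 and Slc2a1 stand furthest to the right in both arms among genes with 50 or more UMIs, and Eno3 and Ldhb lie left of the dashed line in both.

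A gene was counted as past the fold when it was past 1.5-fold with 50 or more UMIs over both sums, a mark reached by 37 of the 38 genes in each arm. In the WT arm 11 of 37 were higher (29.7%) and 5 lower (13.5%), where 10.2% of all 11362 genes with enough UMIs were higher and 13.7% lower. In the KO arm 13 of 37 were higher (35.1%) and 5 lower (13.5%), against backgrounds of 11.7% and 10.8%. The share of the 38 genes that was higher thus lay above the background in both arms, while the share that was lower was close to it. Both arms share no library. The sign of the ratio was the same in both for 36 of 37 genes, Aldoa being the exception, and for 8503 of 11267 genes of the matrix (75.5%). The 11 genes past the fold higher in the WT arm were among the 13 of the KO arm, a share of 100% and 84.6%, where 74.2% and 62.4% of the higher genes of each arm were shared over the whole matrix. Of the 5 lower genes of each arm 3 were shared (60%), namely Eno3, Ldhb and Pfkfb1, near the shares of 46.5% and 63.1% over the whole matrix, where 6.36% of all genes were lower in both arms. The median log2 ratio of the 17 enzymes was 0.27 (0.10 to 0.45) in the WT arm and 0.18 (0.09 to 0.26) in the KO arm, the brackets holding the median of the genes' lower and upper bounds. That of the other genes was 0.38 (0.17 to 0.60) and 0.55 (0.37 to 0.67), where all genes had medians of -0.06 and 0.04.

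The sums over all nuclei mix 4 deposited populations of cardiomyocyte nuclei, whose shares differed between the libraries. CM5 held 6.33% of nuclei in WT-Sham, 16.9% in WT-MI, 7.03% in KO-Sham and 19.2% in KO-MI. CM1 held 78.1, 70.6, 78.7 and 70.8%, CM4 held 13.7, 9.59, 10.5 and 6.39%, and CM2 the rest. In sums of this kind more nuclei of a population and more RNA per nucleus cannot be told apart. The populations come from clusters that the authors made on the expression of these same nuclei, and the methods do not name the genes used, so differences between populations are given as a description.

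Within CM1 alone the MI over Sham ratios were smaller for most of the hypoxia targets and of similar size for several enzymes. In the WT arm 7 of 36 genes were past 1.5-fold higher and 3 lower, where the background was 8.08% and 11.9% of all genes. In the KO arm 10 of 37 were higher and 6 lower, against 10.0% and 10.9%. Slc16a3 stood at 3.13 CPM in WT-Sham, 14.1 in WT-MI, 2.86 in KO-Sham and 10.7 in KO-MI, with log2 ratios of 2.17 (1.32 to 3.14) and 1.90 (1.16 to 2.70). P4ha1 had ratios of 0.99 (0.72 to 1.25) and 0.98 (0.76 to 1.21), Pfkp of 0.996 (0.80 to 1.20) and 0.86 (0.69 to 1.02), and Slc2a1 of 0.79 (0.27 to 1.33) and 1.20 (0.77 to 1.64). These 4 genes were past the fold in CM1 in both arms. They were 57.1% of the higher genes of the WT arm and 40% of those of the KO arm. Over the whole matrix 63.9% and 51.1% of the higher genes in CM1 were shared. With 7 and 10 higher genes, the shares of the list are too coarse to be set apart from those of all genes. Past the fold higher in both arms of CM1 were 4 of 36 genes of the list and 524 of 10508 genes of the matrix. Ndrg1 was not past the fold in CM1, at 10.6, 11.2, 9.68 and 11.5 CPM, with ratios of 0.08 (-0.49 to 0.67) and 0.24 (-0.27 to 0.76). Egln3 in CM1 had 0.25 (-0.09 to 0.60) and 0.72 (0.40 to 1.04), and Bnip3 had 0.39 (0.01 to 0.77) and 0.11 (-0.21 to 0.43). In the nuclei whose final and transferred labels agree, which include no CM5 nucleus, the ratios of Ndrg1 were 0.32 and 0.53 and those of Egln3 0.34 and 0.86.

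CM5 of the libraries labelled MI was where Egln3, Slc2a1 and Ndrg1 stood highest. Egln3 stood at 6.15 CPM in CM5 of WT-Sham, 169 in WT-MI, 15.7 in KO-Sham and 172 in KO-MI, from 2, 250, 10 and 241 UMIs. Its log2 ratios within CM5 were 4.78 (2.91 to 7.84) and 3.45 (2.54 to 4.53), wide because the Sham libraries held so few UMIs. Slc2a1 stood at 6.15, 118, 22.0 and 145 CPM, with ratios of 4.26 (2.38 to 7.32) and 2.72 (1.94 to 3.62). Ndrg1 stood at 15.4, 105, 4.72 and 86.9 CPM, with ratios of 2.77 (1.52 to 4.41) and 4.20 (2.62 to 6.50). In the Sham libraries Egln3 lay below its level in CM1, which was 27.7 CPM in WT-Sham and 20.3 in KO-Sham. Slc2a1 and Ndrg1 each lay above CM1 in 1 of these libraries and below it in the other, with Slc2a1 in KO-Sham at 22.0 CPM in CM5 and 9.82 in CM1. CM5 held 18.6% of the UMIs of WT-MI and 19.1% of those of KO-MI, but 65.4% and 60.4% of the UMIs of Ndrg1, 56.7% and 59.5% of those of Slc2a1 and 52.5% and 53.8% of those of Egln3.

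Slc16a3 and Bnip3 followed within CM5, with log2 ratios of MI over Sham of 2.43 (0.50 to 5.52) and 2.56 (1.11 to 4.49) for Slc16a3 and of 2.41 (1.25 to 3.88) and 2.45 (1.52 to 3.55) for Bnip3. The lowest ratios among genes with 50 or more UMIs were those of Eno3, Ldhb, Pgam2, Pfkm and Gapdh in both arms. Eno3 stood at 369 CPM in CM5 of WT-Sham, 112 in WT-MI, 499 in KO-Sham and 157 in KO-MI, with ratios of -1.72 (-2.07 to -1.37) and -1.67 (-1.93 to -1.42). Ldhb had -1.25 (-1.55 to -0.94) and -1.47 (-1.69 to -1.25), Pgam2 -0.89 (-1.32 to -0.45) and -1.55 (-1.87 to -1.24), Pfkm -1.53 (-2.11 to -0.94) and -0.66 (-1.27 to -0.04), and Gapdh -0.85 (-1.21 to -0.47) and -0.67 (-0.94 to -0.41). Among all nuclei, CM1 and CM5, the highest and the lowest ratios of genes with enough UMIs were both in CM5, in each arm. In the WT arm of CM5 15 of 31 genes with enough UMIs were past the fold higher and 5 lower, with backgrounds of 21.2% and 20.2%. In the KO arm 15 of 31 were higher and 5 lower, with 24.1% and 16.6%. The 21 genes outside the enzyme list summed to 990.1 CPM in CM5 of WT-Sham, 2010.2 in WT-MI, 973 in KO-Sham and 2022 in KO-MI, and in CM1 to 1032, 1162, 938 and 1152.

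Other marker lists moved within CM5 too. Myeloid markers summed to 141, 523, 113 and 314 CPM there, with Cd14 at 0 in WT-Sham and Adgre1 at 0 in KO-Sham. The atrial list, which holds the stress marker Nppa, summed to 274, 3568, 671 and 5508 CPM, with Sln at 0 in both Sham libraries. The 10 ventricular markers summed to 43033, 28885, 46789 and 29636 CPM. Their part in the CM5 values was not tested. Over all nuclei with no myeloid UMI the median ratio of the enzymes was 0.28 in the WT arm and 0.11 in the KO arm, and that of the other genes was 0.37 and 0.41.

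**Figure D4:**
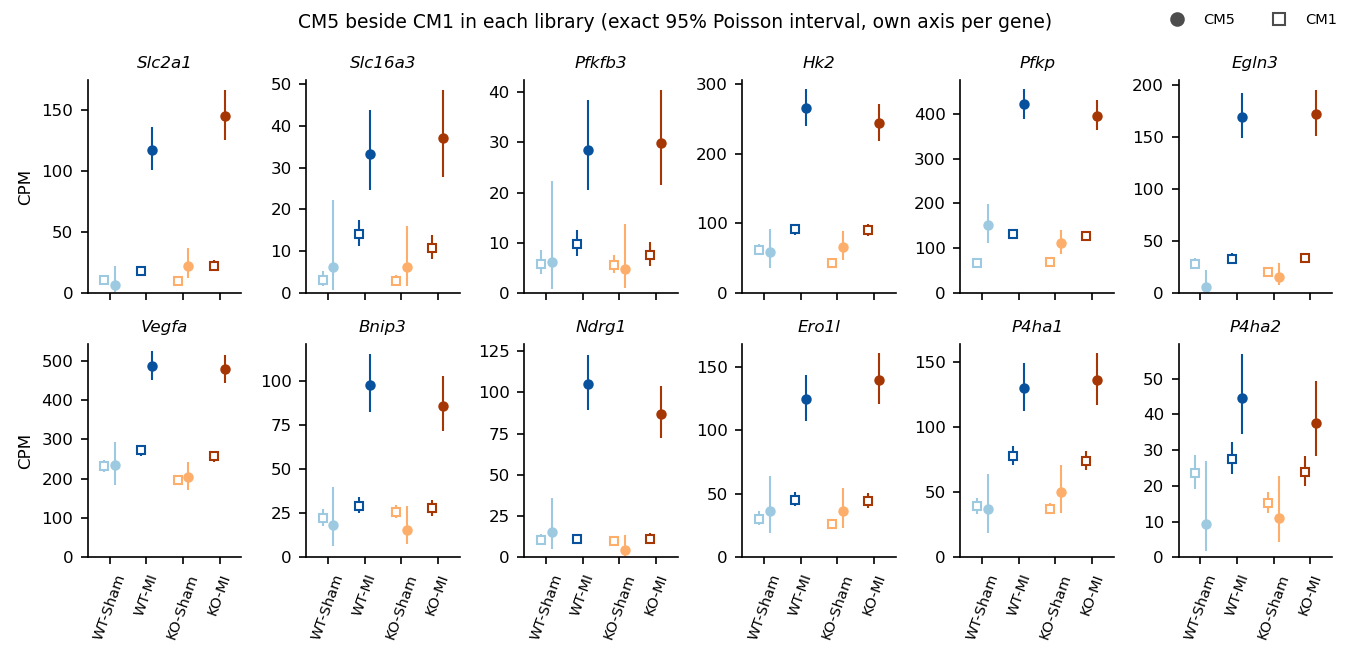
CPM of 12 genes in CM5 (filled circles) and CM1 (open squares) of each library, with exact 95% Poisson intervals and an axis per gene that starts at 0. In the MI libraries CM5 lies above CM1 in each panel, as for Egln3 at 169 and 172 CPM against 32.9 and 33.4. In the Sham libraries most of the intervals overlap, with exceptions such as Pfkp. The genes shown are a chosen part of the list, and others, such as Eno3, lay below CM1 in the MI libraries. Of genes with enough UMIs, 9 of 17 enzymes and 13 of 18 other genes lay above CM1 in WT-MI. In KO-MI 12 of 17 and 14 of 18 did. The interval of the ratio lay below 0 for 5 enzymes and 2 other genes in each of these libraries. The share of all genes above or below CM1 was not counted. Median log2 ratios over CM1 in WT-MI and KO-MI were 0.07 and 0.20 for the enzymes and 0.79 and 0.78 for the other genes. All genes had medians of -0.04 and 0.03.

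In CM4 the glycolytic enzymes took a larger part of the UMIs than in CM1 of the same library, in all 4 libraries. The median log2 ratio of CM4 over CM1 for the 17 enzymes was 1.22 in WT-Sham, 0.94 in WT-MI, 0.60 in KO-Sham and 1.11 in KO-MI, where all genes had medians of -0.43, -0.09, -0.11 and -0.23. Aldoa, Tpi1, Ldha, Gapdh and Pgam2 were each above CM1 by 0.62 or more in every library. The highest of these was Pgam2 in WT-Sham, at 551 CPM in CM4 and 141 in CM1. In each library 13 of the 17 enzymes lay above CM1, and the share of all genes above CM1 was not counted. Hif1a, Hk1, Eno1 and Pfkfb2 were below CM1 in all 4 libraries. Aldoa, Tpi1, Ldha, Gapdh and Pgam2 each span under 20 kb, as does Eno1. Hif1a, Hk1 and Pfkfb2 are longer, at 46.2, 111 and 40.1 kb. Ratios of CM4 over CM1 by gene length were not computed for all genes. CM4 also had the higher share of mitochondrial UMIs, with a median of 9.47 to 14.6% per nucleus against 5.29 to 8.98% over all nuclei, and fewer UMIs, with a median of 1715.5 to 2394 per nucleus. Red blood cell markers summed in CM4 to 12805 CPM in WT-Sham, 8411 in WT-MI, 7833 in KO-Sham and 3538 in KO-MI. The part of gene length, of RNA quality and of free RNA in the CM4 values was not tested.

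Between the genotypes under the MI labels, no gene of the list was past 1.5-fold over all nuclei, in CM1 or in CM5, and 6 were in CM4. Over all nuclei 0 of the 38 genes were past 1.5-fold in either direction, where 1.89% of all genes were higher in KO-MI and 1.73% lower. Within CM1 0 of 36 were past it, against 2.33% and 1.81%, and within CM5 0 of 32, against 5.44% and 2.06%. Within CM4, with 118 nuclei in KO-MI and 192 in WT-MI, 3 of 24 genes were higher (12.5%) and 3 lower (12.5%), against 9.67% and 13.9% of all genes. Eno3 and Pgam2 led them at 0.83 each, and Vegfa was lowest at -1.37. The log2 ratios of KO-MI over WT-MI over all nuclei ran from -0.38 (-1.08 to 0.31) for Pfkfb1 to 0.41 (0.31 to 0.52) for Eno3. Pgam2 (0.36, 0.23 to 0.49) and Pgk1 (0.33, 0.23 to 0.43) followed Eno3. Slc2a1 had 0.27, with an interval above 0, and Slc16a3 had -0.16. Egln3 had 0.02, Ndrg1 -0.12, Hk2 -0.08 and Pfkp -0.05. These genes, which stood high over Sham, thus lay within 1.5-fold between the genotypes over all nuclei. With 1 library each, this does not show that the genotypes were alike.

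In the libraries labelled Sham, several enzymes lay higher in KO-Sham than in WT-Sham, while the other genes lay close to the median of all genes. Over all nuclei 1 of 36 genes was past 1.5-fold higher, Pgam2 with 0.77 (0.66 to 0.88), where 3.96% of all genes were. Another 1 was lower, Pfkfb1 with -0.59 (-1.15 to -0.03), where 3.08% were, and this call held in 1 of 5 alternatives. The median log2 ratio of the 17 enzymes was 0.34 (0.15 to 0.51) and of 19 other genes -0.15 (-0.49 to 0.11), against -0.09 for all genes. Scaling by TMM raised the count of higher genes to 5 and left none lower. Within CM1 8 of 36 genes were past the fold higher and 2 lower, where the background was 6.21% and 4.09%. The 8 were Pgam2 (1.04, 0.90 to 1.17), Gapdh (0.78, 0.66 to 0.90), Pgk1 (0.75, 0.59 to 0.91), Eno3 (0.71, 0.61 to 0.81), Aldoa (0.69, 0.58 to 0.79), Tpi1 (0.63, 0.50 to 0.77), Ldha (0.60, 0.47 to 0.73) and Ldhb (0.59, 0.51 to 0.67). Pgam2 stood in CM1 at 141 CPM in WT-Sham, 111 in WT-MI, 288 in KO-Sham and 143 in KO-MI, so that KO-Sham was high against the other 3 libraries. The 2 lower genes were Pfkfb1 (-0.74, -1.32 to -0.15) and P4ha2 (-0.64, -1.05 to -0.23).

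The 8 genes higher in CM1 of KO-Sham share a short gene body, which the rule did not use. Each of them spans under 20 kb in the GENCODE annotation, as do 10 of the 17 enzymes, and Pgam2 is the shortest of the 38 genes at 2.09 kb (chromosome 11, 5801640 to 5803733). Among all genes of that comparison, those under 20 kb had a median log2 ratio of 0.07 with 12.9% past the fold higher, those of 20 to 60 kb -0.13 with 2.33%, and those over 60 kb -0.23 with 1.09%. In CM4 the order was the other way, at -0.21 under 20 kb and 0.37 over 60 kb, and there Pgam2 (-0.29, -0.54 to -0.03), Eno3 (-0.26, -0.47 to -0.06) and Tpi1 (-0.66, -0.93 to -0.39) were lower in KO-Sham. KO-Sham also had the highest median share of mitochondrial UMIs, 8.98% per nucleus against 5.29 to 6.58%. Introns were counted in these data, and the part of gene length, RNA quality or genotype in the Sham differences cannot be told apart with 1 library per label.

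**Figure D5:**
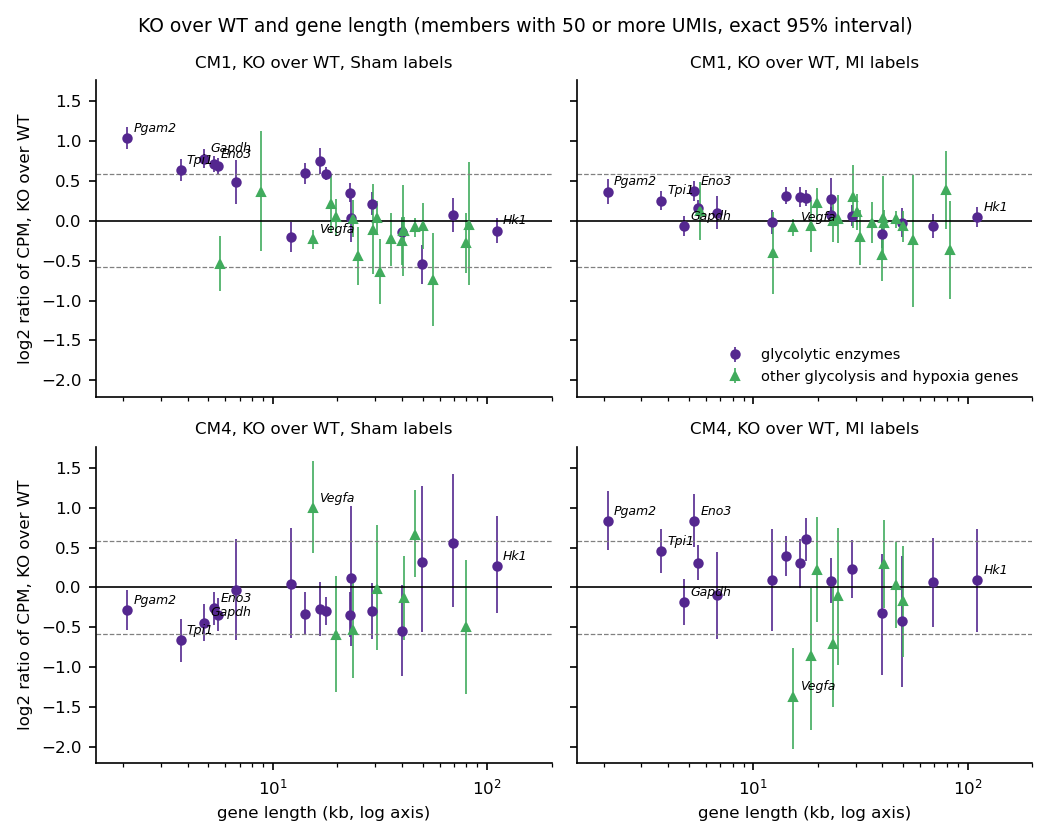
Log2 ratio of KO over WT against gene length in kb on a log axis, in CM1 (top) and CM4 (bottom), under the Sham labels (left) and the MI labels (right), for genes with 50 or more UMIs and exact 95% intervals; dashed lines mark 1.5-fold. In CM1 under the Sham labels the short enzymes such as Pgam2, at 1.04, lie highest, and in CM4 under the same labels Pgam2 lies at -0.29.

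Other genes of the same pathways were taken from 2 lists and are given beside the members. Of 33 further genes of glycolysis and glycogen use, 26 had enough UMIs in each arm. In the WT arm 4 were past 1.5-fold higher and 5 lower, with a median log2 ratio of -0.29, against backgrounds of 10.2% and 13.7%. In the KO arm 4 were higher and 3 lower, with a median of -0.03, against 11.7% and 10.8%. These counts lie near the backgrounds. Gbe1, the branching enzyme of glycogen, had ratios of MI over Sham of 0.83 (0.69 to 0.98) and 0.89 (0.77 to 1.01). Slc2a12, which encodes a further glucose carrier, had -1.62 (-2.32 to -0.95) and -1.84 (-2.67 to -1.09). Pdk4, a kinase that blocks pyruvate oxidation, had -0.85 (-1.04 to -0.67) in the WT arm, and it was the 1 gene of the list past the fold between KO-MI and WT-MI (0.66, 0.49 to 0.83). Mpc2, a subunit of the mitochondrial pyruvate carrier, had -0.86 (-0.94 to -0.79) in the KO arm. Of 34 further hypoxia genes, 32 had enough UMIs. In the WT arm 12 were higher and 4 lower, with a median of 0.12, and in the KO arm 13 were higher and 1 lower, with a median of 0.14, against the same backgrounds. Lox and Plod2, enzymes of collagen cross-linking, had 1.58 (0.91 to 2.31) and 2.16 (1.63 to 2.73), and 1.37 (1.10 to 1.65) and 1.74 (1.49 to 1.99). Hmox1, which breaks down heme, had 1.37 (0.86 to 1.91) and 1.59 (1.02 to 2.18). It was lower in KO-MI than in WT-MI (-0.76, -1.15 to -0.38) and in KO-Sham than in WT-Sham (-0.98, -1.67 to -0.30). The Sham ratio rests on 37 and 40 UMIs. Myeloid cells and fibroblasts also express several of these genes, and their markers are given above.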

How the data were processed

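Nuclei of 4 libraries, 1 per genotype and surgery, were analysed, with groups from the sample titles. The authors deposited UMI counts per gene and nucleus with no normalization, made with Cell Ranger (version not given in the sources used here) on the mm10/GRCm38 pre-mRNA reference, so introns were counted. Whether strand was used is not given in the sources used here. Labels and methods name different versions of the 10x 3′ kit. The authors removed doublets with Scrublet, kept nuclei with 200 to 2500 genes and only cardiomyocyte clusters. They also deposited the percent of mitochondrial UMIs, a final population label (CM1, which also holds CM3, CM2, CM4 or CM5) and a label transferred with Seurat 3. A further 10 deposited columns per nucleus were not used.

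UMIs were summed per library and population and given as counts per 1000000 UMIs (CPM). Intervals are exact at 95% (Poisson for CPM, conditional binomial for ratios) and were tested on simulated data. A gene was called past 1.5-fold with 50 or more UMIs over both sums. No test was made. Genes were named when past 1.5-fold over all nuclei in 1 of 4 comparisons, or among the 5 with the most UMIs. In CM4 and CM5 the 5 highest and 5 lowest ratios could be named, and of the pathway lists up to 6 genes each. The values of 1 gene of the hypoxia list are not reported here. The 38 genes, the lists and the pairs were chosen with earlier results of these data known. Genes named outside this rule, such as Vegfa, Hk1 or Adm, complete the list by role. Gene positions and lengths came from GENCODE M21, which matched 22122 of 22574 symbols. Of the 38 genes, 20 overlap another annotated gene, and reads of the 2 could not be told apart. Aldoa, Gapdh, Pgk1, Pgam1, Ldha and Bnip3l have named pseudogenes that could take or lend counts. Alternatives changed the totals (median gene, TMM by edgeR 4.0.16 in R 4.3.3, totals without the mitochondrial genome and Malat1), the UMI minimum, the fold, the depth (thinned to 1000 UMIs) and the nuclei kept. Other steps used Python 3.11.15, pandas 2.3.3, numpy 2.4.6, scipy 1.17.1 and matplotlib 3.10.9.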

Additional observations from a re-analysis of the deposited data

Results flagged for a closer look

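Each result here moved in opposite directions under the same contrast in 2 groups. Each rests on 1 library per label, so the difference was not tested. For MI over Sham, 1355 of 2543 genes of the matrix had the same sign in both arms in CM4 (53.3%). In CM1 7392 of 10508 did (70.3%). Opposite signs were thus common among all genes in CM4. Of the genes of the list, 18 of 22 had the same sign in CM4 and 32 of 36 in CM1. The share of all genes was not counted for KO over WT. Aldoa in CM1 had a log2 ratio of MI over Sham of 0.23 in the WT arm and -0.30 in the KO arm. Vegfa in CM4 had 1.34 in the WT arm and -1.02 in the KO arm, at 86.0 CPM in WT-Sham, 218 in WT-MI, 171 in KO-Sham and 84.4 in KO-MI, from 34, 92, 125 and 29 UMIs. Between KO and WT in CM4, Vegfa had -1.37 under the MI labels and 0.99 under the Sham labels.

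The enzymes that went opposite ways in CM4 were higher in KO under the MI labels and lower under the Sham labels. Aldoa had 0.31 and -0.34, Tpi1 0.45 and -0.66, and Pgam2 0.83 and -0.29. Eno3 had 0.83 and -0.26, Ldha 0.39 and -0.33, and Ldhb 0.60 and -0.30. All 6 genes span under 20 kb. CM4 held 192, 192, 351 and 118 nuclei in WT-Sham, WT-MI, KO-Sham and KO-MI, and among all genes in CM4 those under 20 kb had a median of 0.29 and -0.21 in the same 2 comparisons and those over 60 kb -0.32 and 0.37. The part of gene length in these values was not tested.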

How the results depend on the processing

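No paired analysis was possible because each label had 1 library. Of the median ratios of both lists, 166 values under the alternatives kept within the median interval and 2 did not. Both were in the KO arm over all nuclei. They were 0.29 for the enzymes with nuclei under 5% mitochondrial UMIs and 0.34 for the other genes with nuclei whose labels agree. The latter nuclei include none of CM2 or CM5. Counts of genes past the fold stayed within 1.5 times in 60 of 80 cases. At 2-fold, over all nuclei, the lower genes went from 5 to 1 in each arm, and between KO-Sham and WT-Sham the 1 higher and the 1 lower gene both went to 0. In CM1 at 2-fold the higher genes went from 7 to 1 and from 10 to 3 in the WT and KO arms, the lower genes of the KO arm from 6 to 2, and under Sham KO over WT from 8 to 1 higher and from 2 to 0 lower. With 200 or more UMIs, CM1 of the WT arm had 4 higher and 1 lower and CM1 under Sham had 1 lower, as it did when scaled to the median gene or by TMM, and over all nuclei under Sham there were 0 lower in all 3 settings. The higher genes under Sham over all nuclei numbered 2 with 20 or more UMIs, 4 by the median gene and 5 by TMM.

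Of 36 called values of named genes, 35 kept their direction under every alternative that gave a value, and 21 stayed past 1.5-fold in all of them. The exception in direction was Epas1 in the WT arm, at 0.00528 in nuclei with no UMI of a myeloid marker. That setting and the agreeing labels with CM2 and CM5 exchanged were chosen after the data were seen. Without the exchange, the agreeing labels kept no CM2 or CM5 nucleus in any library, so that setting left these populations out. With it, 268 CM5 nuclei of WT-MI and 287 of KO-MI agreed. Nuclei with no UMI of any other cell type numbered 3, all in KO-Sham, so that alternative gave no value. Depth limits Slc16a3, Pfkfb1, Pfkfb3, Adm and most genes in CM5 of the Sham libraries. The cause of none of these changes was tested.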
